A study of Mus musculus with 6 samples.

Results

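The methionine cycle and its branches are described here through 9 genes in the livers of mice treated with an antisense oligonucleotide (ASO) against *Mmab*. The genes were chosen by symbol as methionine synthase, the other enzyme that uses cobalamin, together with enzymes that handle methyl groups and homocysteine: *Mtr*, *Mtrr*, *Mat1a*, *Gnmt*, *Ahcy*, *Bhmt*, *Cbs*, *Cth* and *Pemt*. All 9 were among the 21297 genes of the deposited table. MMAB ASO livers (n = 3) were compared with control ASO livers (CON ASO, n = 3), all from male C57BL/6J mice on chow diet. Dosing began at 8 weeks of age, and mice were given 50 mg/kg of either ASO intraperitoneally, once weekly over 6 weeks, with livers taken 48 h after the final dose. The study treated 6 mice with control ASO and 7 with MMAB ASO, so the livers here are a part of each group. Its methods give an overnight fast as the default before work in mice. Livers are numbered 1, 2 and 4 in either group. Both groups carried an oligonucleotide, and these data include no untreated liver. Levels are in CPM, the reads of a gene scaled by the authors to the total of its library (the usual counts-per-million unit).

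Vitamin B12 serves mammals as 2 coenzymes. MMAB makes adenosylcobalamin, the coenzyme of methylmalonyl-CoA mutase in mitochondria, whereas methionine synthase (*Mtr*) uses methylcobalamin in the cytosol to turn homocysteine back into methionine. Methionine is then activated to S-adenosylmethionine (SAM), the methyl donor of most methyltransferases. Methyl transfer leaves S-adenosylhomocysteine (SAH), which is split into homocysteine and adenosine. Homocysteine is either remethylated or drained through cystathionine to cysteine, and liver is the main site of these reactions.

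The targeted gene was lower in every MMAB ASO liver. *Mmab* was at 1.87, 2.69 and 1.80 CPM in MMAB ASO livers 1, 2 and 4, against 6.31, 5.30 and 6.83 CPM in CON ASO livers 1, 2 and 4, at a log2 fold change of -1.55 (adjusted p = 0.00225 from limma). Libraries held an estimated 44.7 to 55.3 M reads. CON ASO replicate 1 stood apart in *Marco*, a macrophage gene, at 15.7 CPM, with the other 5 livers between 0.134 and 0.813 CPM. Over the Kupffer cell and macrophage markers its mean log2 level lay 1.21 above the CON ASO mean, with CON ASO replicates 2 and 4 at -0.52 and -0.69. Its protein-coding genes took 57.0% of the total, against 46.2 to 51.1% in the other livers. Of the 11565 genes tested, those averaging 1 CPM or more, 473 (4.09%) passed an adjusted p of 0.05 from limma, 1.87% higher and 2.22% lower in MMAB ASO livers, so that 45.7% of the calls were higher. That share was 28.0% under median-ratio scaling, 65.7% with each library scaled to its protein-coding sum, and 89.3% with each scaled to hepatocyte markers. The median log2 fold change of all tested genes was 0.03.

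None of the 9 genes passed an adjusted p of 0.05 from limma (0 of 9). At an unadjusted p under 0.05 there were 3, *Mtr* higher and *Gnmt* and *Pemt* lower in MMAB ASO livers, where 17.8% of all tested genes met that mark, 9.92% higher and 7.85% lower. In the limma fit no gene of the 9 met the study's thresholds, an unadjusted p up to 0.05 with a fold of 1.5 or more. Of all tested genes 9.07% met them (5.52% higher, 3.55% lower). The study applied its thresholds to p-values from the Partek GSA algorithm, which was not run here. In 4 of the 9 the groups did not overlap, as in 22.7% of all tested genes. *Mtr* lay above in all 3 MMAB ASO livers, and *Mat1a*, *Gnmt* and *Pemt* lay below (13.8% and 8.91% of all tested genes lay above and below). An exact two-sided permutation test of each of these 4 had p = 0.1, the lowest value possible with 3 livers a side. Of 12 hepatocyte markers 4 lay below without overlap, as did 4 of 9 pericentral and 2 of 9 periportal hepatocyte markers. In these marker lists 0 lay above. The median log2 fold change of the 9 methionine cycle genes was -0.29, with 3 positive and 6 negative, while 55.6% of all tested genes were positive. Averaged over the 9, the log2 difference from the CON ASO mean was 0.01, -0.18 and -0.30 in MMAB ASO livers 1, 2 and 4. In CON ASO livers 1, 2 and 4 it was 0.04, 0.04 and -0.08. Among fits with 1 library left out, that without MMAB ASO replicate 1 gave the largest change for *Mtr*, *Mat1a*, *Gnmt* and *Cth*.

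**Figure D1:**
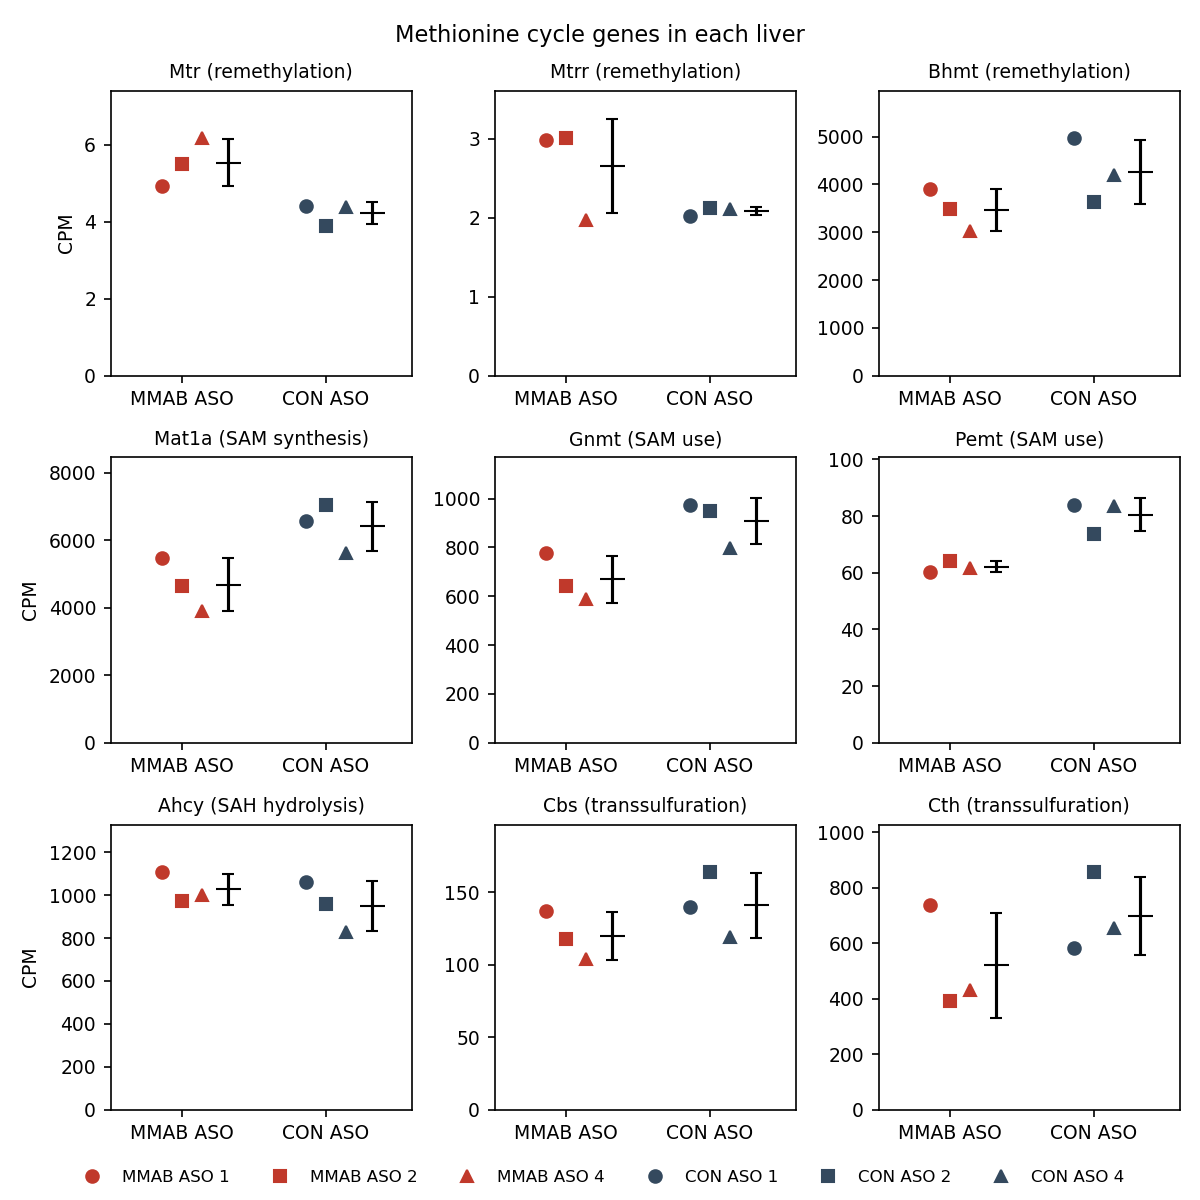
Level of each gene in CPM (y axis, starting at 0) in the 3 MMAB ASO livers (red, left) and the 3 CON ASO livers (dark blue, right), with the replicate number as the marker's shape and the mean ± SD as a bar beside the points. *Mtr* is higher in all 3 MMAB ASO livers, *Mat1a*, *Gnmt* and *Pemt* are lower in all 3, and the groups overlap in the other 5 genes.

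The remethylation genes lay at opposite ends of the range of levels. *Mtr* (chromosome 13 of GRCm38, 12182712 to 12258113, minus strand), the cobalamin-dependent methionine synthase, had 4.93, 5.50 and 6.17 CPM in MMAB ASO livers 1, 2 and 4, against 4.41, 3.90 and 4.38 CPM in CON ASO livers 1, 2 and 4. Every MMAB ASO liver stood above every CON ASO liver, by a narrow margin for MMAB ASO replicate 1. The mean was 5.53 ± 0.619 CPM in MMAB ASO livers and 4.23 ± 0.289 CPM in CON ASO livers (SD, n = 3 each). In limma the difference, MMAB ASO minus CON ASO, was 0.38 in log2 (standard error 0.16, 95% interval 0.03 to 0.74, adjusted p = 0.246). The difference thus missed the threshold, and the interval of the fold ran from 1.02 to 1.67. These levels correspond to an estimated 201 to 276 reads a library, so counting error limits their precision.

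*Mtrr* (chromosome 13, 68560780 to 68582149, minus strand) encodes the reductase that restores methionine synthase when its cobalamin has been oxidised. It had 2.99, 3.01 and 1.97 CPM in MMAB ASO livers 1, 2 and 4, against 2.02, 2.12 and 2.10 CPM in CON ASO livers 1, 2 and 4. Replicates 1 and 2 of the MMAB ASO group were above the CON ASO livers, and replicate 4 was below all of them. The fitted log2 difference from limma was 0.33 (standard error 0.22, adjusted p = 0.491), and 0.53 without MMAB ASO replicate 4. The liver with the most *Mtr* was thus the one with the least *Mtrr*.

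*Bhmt* (chromosome 13, 93616675 to 93637961, minus strand) encodes betaine-homocysteine methyltransferase, which makes methionine from homocysteine without cobalamin and is abundant in liver. It had 3906, 3485 and 3025 CPM in MMAB ASO livers 1, 2 and 4, against 4971, 3622 and 4187 CPM in CON ASO livers 1, 2 and 4. The groups overlapped, since CON ASO replicate 2 lay below MMAB ASO replicate 1. Between the groups limma gave -0.29 in log2 (standard error 0.20, adjusted p = 0.504), and -0.17 without CON ASO replicate 1. *Bhmt2*, its neighbouring paralog, averaged 176.4 CPM in MMAB ASO livers and 178.2 CPM in CON ASO livers, with a log2 fold change of -0.01. Reads shared by the 2 paralogs could be split between them by the authors' estimation of abundance.

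The sequences before the start sites of *Mtr* and *Gnmt* are shown because *Gnmt* was lower in the livers where *Mtr* was higher. Each is the 250 bases upstream of a RefSeq start on GRCm38.p6, read 5′ to 3′ on the minus strand, with capitals on matches to the GC box GGGCGG or to the motif CCAAT on either strand. The window of *Mtr* is chr13:12258114-12258363 and that of *Gnmt* chr17:46729166-46729415. By GENCODE M21 the *Mtr* window lies outside the gene and 3 bases of the *Gnmt* window lie within it.
Mtr: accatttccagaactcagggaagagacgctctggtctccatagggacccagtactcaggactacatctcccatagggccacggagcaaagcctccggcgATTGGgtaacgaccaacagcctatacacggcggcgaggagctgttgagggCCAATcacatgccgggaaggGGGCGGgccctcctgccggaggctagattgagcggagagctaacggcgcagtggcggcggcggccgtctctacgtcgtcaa
Gnmt: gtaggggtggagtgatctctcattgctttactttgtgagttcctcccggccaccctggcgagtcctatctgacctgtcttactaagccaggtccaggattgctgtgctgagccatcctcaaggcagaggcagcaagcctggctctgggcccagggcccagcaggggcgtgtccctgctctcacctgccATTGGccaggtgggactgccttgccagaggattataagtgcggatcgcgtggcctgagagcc

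The *Mtr* window held 20 CpG dinucleotides and the *Gnmt* window 6, and the median of 32851 mouse promoters of this length was 6. A GC box was found in the *Mtr* window (1 match) and not in that of *Gnmt*, and 32.7% of all these promoters held one. CCAAT matched 2 times in the *Mtr* window and 1 time in that of *Gnmt*, with a share of 33.8% over all promoters. Neither window held TATAAA (12.4% of all promoters) or CACGTG (6.02%), on either strand. No 2 matches overlapped. Of the 9 genes 7 had such a window. That of *Cbs*, which had a negative fold change, held 21 CpG dinucleotides and 2 GC boxes. Of the genes with positive ones, the *Mtrr* windows held 30 and 28 CpG and the *Ahcy* window 9, each with 1 GC box. The *Bhmt* window held 5 and the *Pemt* windows 2 and 1, with no GC box, at negative fold changes. Any link of these features to the fold changes was not tested.

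Methionine is turned into SAM by methionine adenosyltransferase, of which *Mat1a* is the form of adult hepatocytes. *Mat1a* (chromosome 14, 41105035 to 41124412, plus strand) had 5473, 4654 and 3913 CPM in MMAB ASO livers 1, 2 and 4, against 6583, 7045 and 5618 CPM in CON ASO livers 1, 2 and 4. All MMAB ASO livers lay below all CON ASO livers, but MMAB ASO replicate 1 came close to CON ASO replicate 4. The fitted log2 difference from limma was -0.46 (standard error 0.21, 95% interval -0.93 to 0.01, adjusted p = 0.288). *Mat2a*, the form of other tissues and of growing hepatocytes, averaged 32.8 ± 3.29 CPM in MMAB ASO livers and 33.7 ± 2.14 CPM in CON ASO livers (SD, n = 3 each), with a log2 fold change of -0.04. *Mat2b*, the regulatory partner of MAT2A, was at 0.08. The log2 ratio of *Mat1a* to *Mat2a* in a liver overlapped between the groups, at a mean of 7.15 in MMAB ASO livers and 7.57 in CON ASO livers.

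Both of the 9 genes that encode SAM-dependent methyltransferases were lower in all MMAB ASO livers. *Gnmt* (chromosome 17, 46725664 to 46729168, minus strand) encodes glycine N-methyltransferase, which uses up surplus SAM by methylating glycine. It had 777, 640 and 591 CPM in MMAB ASO livers 1, 2 and 4, against 974, 950 and 799.6 CPM in CON ASO livers 1, 2 and 4. As with *Mat1a*, MMAB ASO replicate 1 was the highest of its group and CON ASO replicate 4 the lowest of its own. The limma difference was -0.44 in log2 (standard error 0.16, 95% interval -0.79 to -0.10, adjusted p = 0.157).

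*Pemt* (chromosome 11, 59970614 to 60046489, minus strand) encodes phosphatidylethanolamine N-methyltransferase, which makes phosphatidylcholine with methyl groups from SAM. It had 60.4, 64.2 and 61.5 CPM in MMAB ASO livers 1, 2 and 4, against 83.9, 73.8 and 83.7 CPM in CON ASO livers 1, 2 and 4. The MMAB ASO livers lay within a narrow band, and the gap to the lowest CON ASO liver was wider than that band. The mean was 62.0 ± 1.95 CPM in MMAB ASO livers and 80.4 ± 5.78 CPM in CON ASO livers (SD, n = 3 each). Of the 9 genes *Pemt* had the smallest p-value, with a log2 fold change of -0.37 (standard error 0.12, 95% interval -0.63 to -0.12, unadjusted p = 0.00753, adjusted p = 0.107 from limma). The fold was 0.772, with an interval of 0.648 to 0.921. Under median-ratio scaling its adjusted p was 0.0376 from limma, at a log2 fold change of -0.43.

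*Ahcy* (chromosome 2, 155059310 to 155074497, minus strand), which splits SAH into homocysteine and adenosine, was the abundant enzyme of the cycle with no lower mean. It had 1108, 971 and 1000.3 CPM in MMAB ASO livers 1, 2 and 4, against 1062, 959.7 and 827 CPM in CON ASO livers 1, 2 and 4. The groups overlapped. The fitted log2 difference from limma was 0.12 (standard error 0.15, 95% interval -0.22 to 0.45, adjusted p = 0.761), and 0.02 without CON ASO replicate 4. The related genes *Ahcyl1* and *Ahcyl2* were at -0.22 and -0.25, with adjusted p-values of 0.571 and 0.547 from limma.

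The transsulfuration genes had negative fold changes and overlapping groups. *Cbs* (chromosome 17, 31612623 to 31637199 in the deposited table, minus strand) encodes cystathionine β-synthase, which joins homocysteine with serine. It had 137.2, 117.9 and 103.9 CPM in MMAB ASO livers 1, 2 and 4, against 139.7, 163.8 and 119.2 CPM in CON ASO livers 1, 2 and 4. Its log2 difference by limma was -0.23 (standard error 0.15, adjusted p = 0.465), and -0.12 without CON ASO replicate 2, which was the highest liver.

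*Cth* (chromosome 3, 157894248 to 157925077, minus strand) encodes cystathionine γ-lyase, which releases cysteine from cystathionine. It had 738, 393 and 430 CPM in MMAB ASO livers 1, 2 and 4, against 582, 856 and 655 CPM in CON ASO livers 1, 2 and 4. MMAB ASO replicate 1 was above CON ASO replicates 1 and 4, and the other MMAB ASO livers were below all CON ASO livers. Relative to its mean, *Cth* had the widest spread of the 9 genes in the MMAB ASO group, with an SD of 190 CPM on a mean of 520 CPM, against an SD of 142 CPM on a mean of 698 CPM in CON ASO livers. Its log2 difference by limma was -0.46 (standard error 0.23, adjusted p = 0.317). It was -0.74 (adjusted p = 0.0604 from limma) without MMAB ASO replicate 1 and -0.29 without MMAB ASO replicate 2, so the size of the difference rested on single livers.

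**Figure D2:**
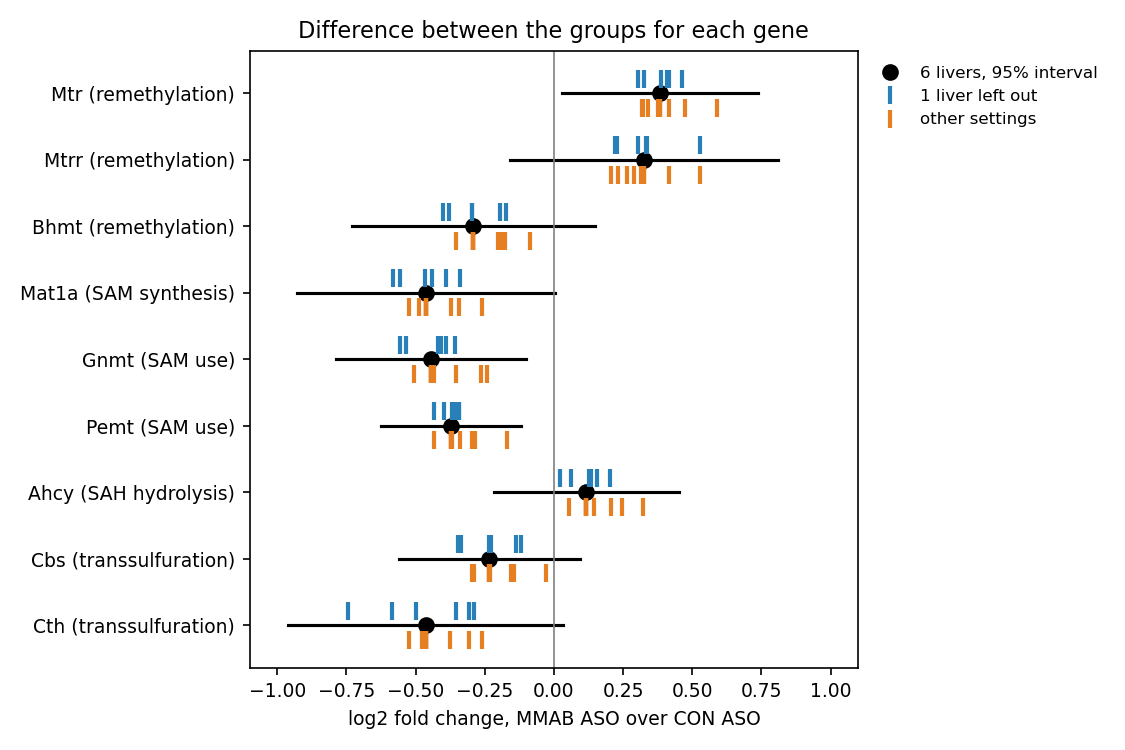
Log2 fold change of MMAB ASO over CON ASO (x axis) for the 9 genes, with the value from all 6 livers and its 95% interval in black, the values with 1 liver left out as blue ticks above, and those under other settings as orange ticks below. The intervals of *Mtr*, *Gnmt* and *Pemt* lie on one side of 0, and no tick of any gene crosses 0.

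Levels of different genes were compared per kilobase of exon. In CON ASO livers *Mat1a* stood first at a level of 1850 ± 210 CPM per kb, followed by *Gnmt* at 753 ± 78.4 and *Bhmt* at 740 ± 118 (SD, n = 3 each), whose ranges overlapped. *Ahcy*, at 339 ± 42.0 CPM per kb, and *Cth*, at 250 ± 50.8, also overlapped, while *Pemt* (38.2 ± 2.75) and *Cbs* (18.8 ± 2.99) did not. *Mtr* and *Mtrr* were last, at 0.496 ± 0.0340 and 0.400 ± 0.00979 CPM per kb. In MMAB ASO livers *Bhmt*, at 603 ± 76.5 CPM per kb, came before *Gnmt*, at 555 ± 79.8. Their ranges overlapped there too, at 525 to 678 and 490 to 644 CPM per kb. The order of the other 7 genes was as in CON ASO livers. Lengths are those of all annotated exons of a gene in GENCODE M21, whose *Cbs* model is longer than the one in the deposited table.

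**Figure D3:**
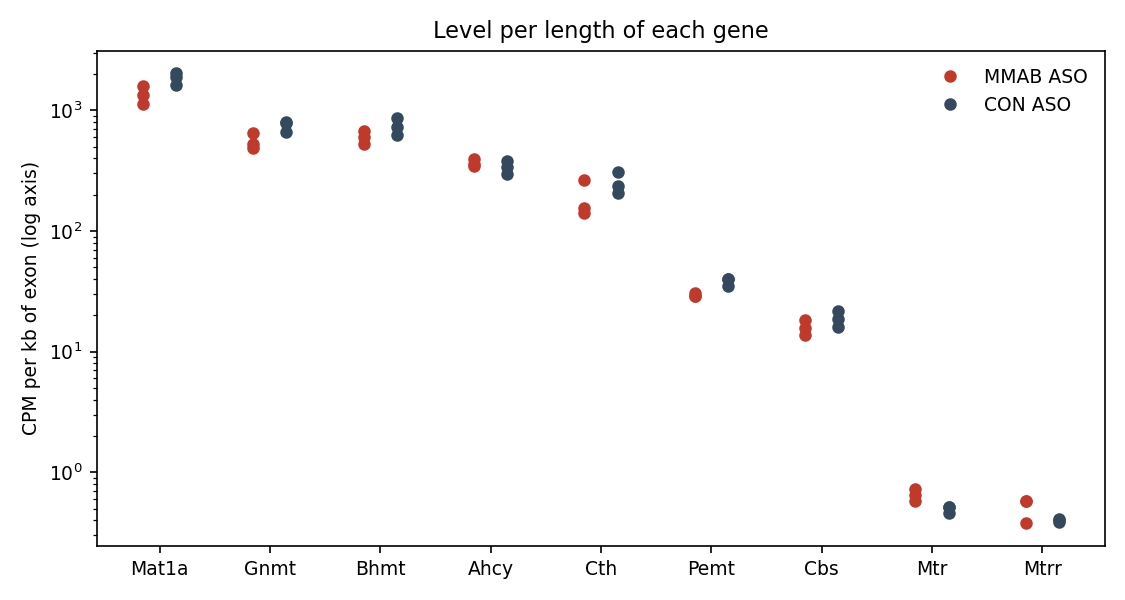
Level per kilobase of exon on a log axis, for each gene in the 3 MMAB ASO livers (red, left of each pair) and the 3 CON ASO livers (dark blue), ordered by the CON ASO mean. *Mat1a* is at the top, at a mean of 1850 CPM per kb in CON ASO livers, and *Mtr* and *Mtrr* are below 1 CPM per kb in all 6 livers.

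Ratios of 2 genes within the same liver do not depend on how libraries are scaled, and were taken as a description for pairs chosen after their values were seen. The log2 ratio of *Mtr* to *Pemt* was -3.61, -3.55 and -3.32 in MMAB ASO livers 1, 2 and 4, against -4.25, -4.24 and -4.26 in CON ASO livers 1, 2 and 4. The mean ratio was thus higher by 0.76 on the log2 scale in MMAB ASO livers, and the CON ASO livers were nearly equal. Against *Mat1a*, *Gnmt* and *Bhmt* the ratio of *Mtr* was higher by 0.85, 0.83 and 0.67, and the groups did not overlap. For *Pemt*, *Mat1a* and *Gnmt* this follows from the levels already given, since *Mtr* lay above and these genes below in every MMAB ASO liver, and each difference is that of the 2 fold changes. The ratio of *Mat1a* to *Gnmt* overlapped between the groups, with a mean log2 ratio of 2.80 ± 0.0680 in MMAB ASO livers and 2.82 ± 0.0667 in CON ASO livers (SD, n = 3 each). The ratio of *Mat1a* to *Ahcy* was 2.18 ± 0.183 in MMAB ASO livers and 2.76 ± 0.122 in CON ASO livers (SD, n = 3 each), lower in every MMAB ASO liver.

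**Figure D4:**
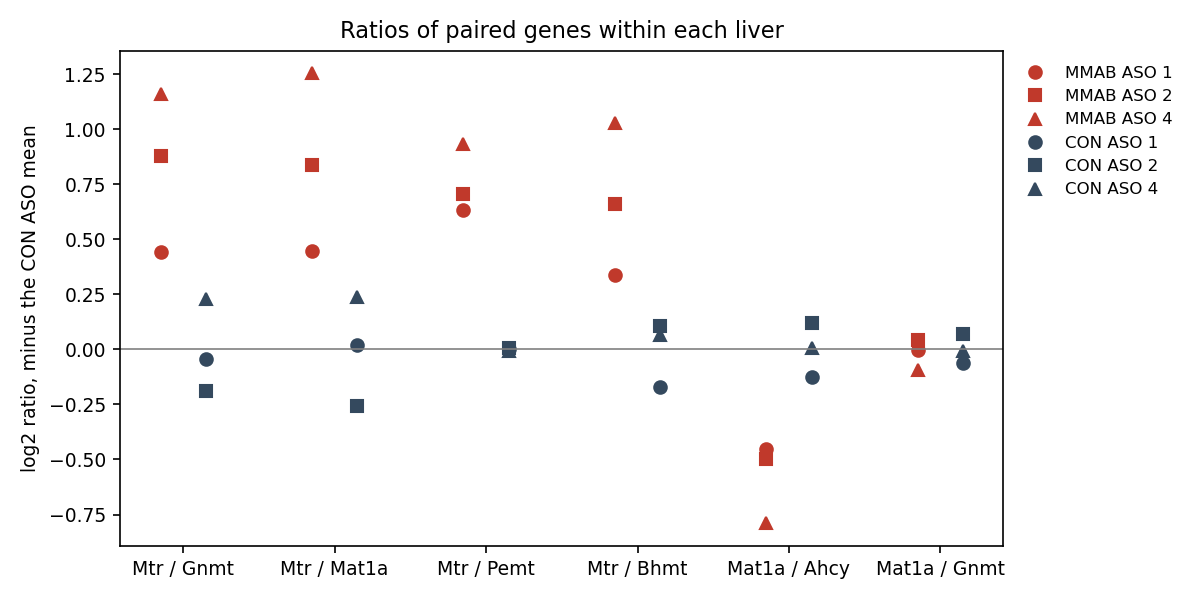
Log2 ratio of 2 genes within a liver, less the CON ASO mean of that ratio (y axis), for 6 pairs, with MMAB ASO livers in red at the left of each pair and CON ASO livers in dark blue. The 4 ratios with *Mtr* on top are higher in all MMAB ASO livers, that of *Mat1a* to *Ahcy* is lower, and that of *Mat1a* to *Gnmt* overlaps between the groups.

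The patterns most like those of *Mtr* and *Pemt* over the 6 livers were found by the root mean square difference of centred log2 values, among genes averaging 5 CPM or more. For *Mtr* the closest were *Svip* (0.0487), *Fkbp5* (0.0565) and *Acin1* (0.0659), out of 7502 genes. For *Pemt* they were *Dgat2* (0.0428), *Trafd1* (0.0480) and *Suclg2* (0.0484), out of 7501. *Dgat2* encodes an enzyme of triglyceride synthesis and *Suclg2* a subunit of succinyl-CoA ligase. These are the best matches among all these genes over only 6 values, so closeness alone shows no link, and none was tested.

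Some markers of other liver cells were higher in MMAB ASO livers. In MMAB ASO livers 6 of 13 endothelial and 6 of 12 stellate cell markers passed an adjusted p of 0.05 from limma, all higher, as did 2 of 11 tested Kupffer cell and macrophage markers. Of these 11, 10 had positive fold changes and 1, *Marco*, went the other way. It was at -2.96 (adjusted p = 0.108 from limma), with every MMAB ASO liver below every CON ASO liver. The summed level of the endothelial markers was 105 to 120 CPM in MMAB ASO livers and 49.0 to 72.9 CPM in CON ASO livers, and that of the stellate cell markers was 146 to 177 CPM in MMAB ASO livers and 86.9 to 115 CPM in CON ASO livers. The Kupffer cell and macrophage markers summed to 76.2 to 127 CPM in MMAB ASO livers and 33.6 to 119 CPM in CON ASO livers, and 1 of 2 tested cholangiocyte markers, *Spp1*, was higher. The counts depended on single libraries. With 1 library left out, 4 to 9 endothelial markers passed. Of the stellate cell markers 2 passed without MMAB ASO replicate 4 or CON ASO replicate 4, 3 without MMAB ASO replicate 1 or 2, and 8 without CON ASO replicate 1. Of the Kupffer cell and macrophage markers 8 passed without CON ASO replicate 1, 1 without MMAB ASO replicate 2, and 0 without MMAB ASO replicate 1 or 4 or CON ASO replicate 4. Of 12 hepatocyte markers 0 passed in limma, with 2 lower ones below an unadjusted p of 0.05, and the median log2 fold change was -0.21, beside -0.29 for the 9 genes. Their summed level was 48988 to 65504 CPM in MMAB ASO livers and 59874 to 69353 CPM in CON ASO livers, and no marker of these lists was at 0 in any liver. In bulk liver, fewer hepatocytes and less RNA of a gene per hepatocyte cannot be told apart.

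With each library scaled to the hepatocyte markers, which moved the median of all genes to 0.24, *Mat1a*, *Gnmt* and *Pemt* were at -0.26, -0.24 and -0.17 and *Mtr* was at 0.59 (adjusted p = 0.0326 from limma). In that fit 2069 of the 11565 tested genes passed, 89.3% of them higher. Markers of both liver zones had negative medians, -0.46 over 9 pericentral and -0.35 over 9 periportal hepatocyte genes, of which 3 and 1 passed, all lower. No pericentral marker passed without CON ASO replicate 4 and 1 did without MMAB ASO replicate 4, and the periportal call was lost in 11 of 17 alternatives, hepatocyte-marker scaling and every leave-out but that of CON ASO replicate 4 among them. The part of these shifts in the differences of the 9 genes was not tested.

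Around the cycle, 3 of the 81 tested genes in 8 lists of neighbouring pathways passed an adjusted p of 0.05 from limma, all lower in MMAB ASO livers, and 13 had an unadjusted p under 0.05. These are 3.7% and 16% of the 81, beside 4.09% and 17.8% of all tested genes. One of the 3 was *Mmab* itself. *Nnmt*, nicotinamide N-methyltransferase, which spends SAM on nicotinamide, had 113.9, 67.5 and 55.5 CPM in MMAB ASO livers 1, 2 and 4, against 167, 221 and 142.1 CPM in CON ASO livers 1, 2 and 4. All MMAB ASO livers lay below all CON ASO livers. The difference in log2 was -1.21 (standard error 0.24, adjusted p = 0.0159 from limma), but the adjusted p was 0.0646 when MMAB ASO replicate 4 was left out, 0.0505 when CON ASO replicate 1 was, and 0.0542 when CON ASO replicate 4 was. It also missed the threshold with no filter (0.0502), no trend in the prior variance (0.0574) and quantile normalization (0.0670).

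*Etnk2*, an ethanolamine kinase of liver, starts the making of phosphatidylethanolamine, the substrate of PEMT. It had 113.1, 98.9 and 76.3 CPM in MMAB ASO livers 1, 2 and 4, against 156, 159 and 185 CPM in CON ASO livers 1, 2 and 4. The groups did not overlap. The difference in log2 was -0.81 (standard error 0.15, adjusted p = 0.0136 from limma), but the adjusted p was 0.0677 when MMAB ASO replicate 4 was left out and 0.0758 when CON ASO replicate 4 was. *Etnk1*, the other ethanolamine kinase, was at -0.55 (adjusted p = 0.0934 from limma). It passed in 3 alternatives, the fit without MMAB ASO replicate 2 (0.0289) among them. *Cept1*, which joins either head group to diacylglycerol, was at -0.28. Of 12 tested genes of this list 10 had negative fold changes, at a median of -0.19, as did 9 of 12 hepatocyte markers, at -0.21. Among all tested genes 55.6% were positive.

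Other methyltransferases did not pass. *Gamt*, the last enzyme of creatine synthesis and a large user of SAM, averaged 9.67 ± 1.51 CPM in MMAB ASO livers and 14.8 ± 4.57 CPM in CON ASO livers (SD, n = 3 each), at a log2 fold change of -0.57 (adjusted p = 0.197 from limma). Without CON ASO replicate 2, at 9.61 CPM the lowest of its group, it was -0.86 (adjusted p = 0.0093). *Coq5*, a methyltransferase of coenzyme Q synthesis, was at 0.30.

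Of the folate list 19 of 25 genes were tested, with 0 past the adjusted p of 0.05 from limma, 1 at an unadjusted p under 0.05 and a median log2 fold change of -0.04. That gene was *Amt*, the aminomethyltransferase of the glycine cleavage system, at -0.30 (adjusted p = 0.212 from limma). *Shmt1*, the cytosolic serine hydroxymethyltransferase, was at -0.25 with no overlap between the groups.

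Choline and betaine oxidation, which feeds BHMT with betaine and passes its methyl groups on to folate, had 0 of 5 genes past the adjusted p of 0.05 from limma and 1 at an unadjusted p under 0.05. *Pipox*, which oxidises sarcosine and pipecolate, was at -0.34 (adjusted p = 0.169), *Chdh*, choline dehydrogenase, at -0.20 and *Dmgdh*, dimethylglycine dehydrogenase, at -0.07. In the list of cysteine, taurine, glutathione and sulfide enzymes 9 of 10 fold changes were negative, at a median of -0.19, with 0 past the adjusted p and 3 at an unadjusted p under 0.05. Of all tested genes 55.6% were positive, but the hepatocyte markers also tilted down, with 9 of 12 negative at a median of -0.21. *Tst*, a sulfurtransferase of mitochondria, had 103.2, 100.9 and 89.8 CPM in MMAB ASO livers 1, 2 and 4, against 133.5, 128.2 and 128.2 CPM in CON ASO livers 1, 2 and 4. The groups were apart, at a log2 fold change of -0.41 (adjusted p = 0.0769 from limma). *Ethe1*, which oxidises persulfides, was at -0.49 and *Gclm*, the modifier of glutamate-cysteine ligase, at -0.30.

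In methionine salvage and polyamine synthesis 7 of 9 fold changes were positive, beside 55.6% of all tested genes. Their median was 0.13, with 0 past the adjusted p of 0.05 from limma and 1 at an unadjusted p under 0.05. *Odc1*, ornithine decarboxylase, was at -0.45 (adjusted p = 0.223), *Srm*, spermidine synthase, at 0.30 and *Sms*, spermine synthase, at 0.38. Of the cobalamin list, *Mmab* apart, no gene of the other 11 passed. *Abcd4*, which takes part in releasing cobalamin from lysosomes, was at 0.59 (adjusted p = 0.206) with overlapping groups, and *Lmbrd1*, its lysosomal partner, at -0.20. The median of the cobalamin list was -0.06.

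**Figure D5:**
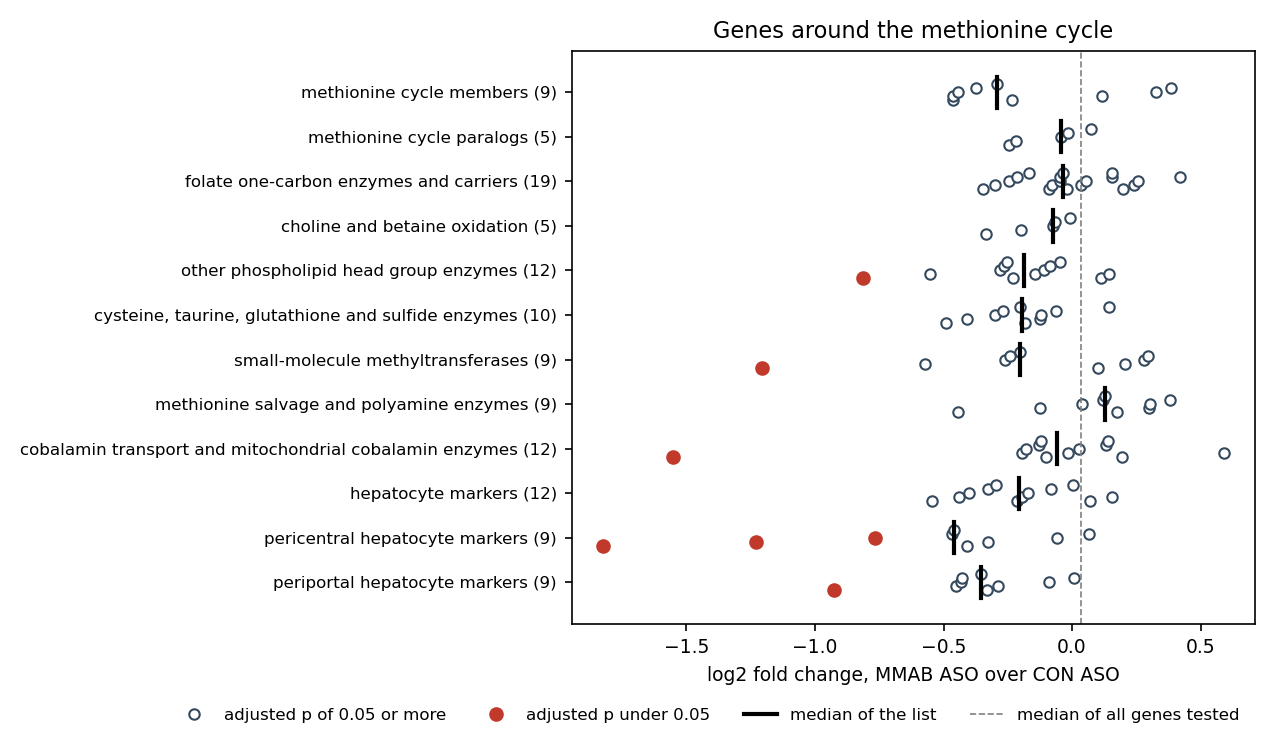
Log2 fold change of MMAB ASO over CON ASO (x axis) for each tested gene of the 9 genes, of the 8 lists around them and of 3 hepatocyte marker lists, with the number tested in parentheses, red where the adjusted p is under 0.05, a black bar at the median of the list and a dashed line at the median of all tested genes, 0.03. The red points left of 0 in the lists around the cycle are *Mmab*, *Nnmt* and *Etnk2*, and none of the 9 genes is red.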

How the data were processed

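Liver RNA of 6 mice was sequenced after depletion of ribosomal RNA. The authors aligned reads with STAR, estimated gene abundance with the Partek E/M algorithm in PartekFlow 8.0.19.0405, scaled counts to the total of each library, added 0.0001 and took log2. These deposited log2 values were tested as they stand, and their linear values are given as CPM. The study's methods and the labels name different sequencers, both name a small RNA library kit, and no sequencing batch is given in the sources used here. The sample names end in a number that is the same for MMAB ASO replicate 1 and CON ASO replicate 1 and far higher for MMAB ASO replicates 2 and 4 than for any other library. The libraries may therefore come from more than 1 run, and a run that held MMAB ASO livers alone cannot be told apart from the treatment. The 9 genes had their lowest mean log2 levels in MMAB ASO replicates 2 and 4, and the part of a run in this was not tested. Read totals were estimated from the value of 1 read, the commonest lowest step, and no count test was run. Of 21297 genes, 20 symbols that had become dates were named by coordinates.

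Genes averaging 1 CPM or more (11565) were fitted with limma 3.58.1 in R 4.3.3 (prior variance following the mean, no covariates, Benjamini-Hochberg adjustment over all tested genes). Log2 fold changes are on the log2(CPM + 0.0001) scale. The fit was tested on simulated data. Other settings tried were added constants of 0.1 and 1, a filter at 5 CPM or none, 4 scalings, no trend, array weights, a replicate block and leaving out each library. Genes named are the 9 members, and in each of the 8 lists those that passed and the 3 with the smallest adjusted p, beside *Mmab*, *Marco* and the 3 genes with patterns closest to *Mtr* and to the member of smallest adjusted p. *Mat2a*, *Bhmt2* and *Spp1* were named after their values were seen. One gene that this rule names is not reported here. The members and lists were chosen with earlier results of these data known. Coordinates are of GENCODE M21 (GRCm38), and 8 of the 9 genes have the same ones in the table. Promoters are from RefSeq (GRCm38.p6). Software for tables and plots was pandas 2.3.3 and matplotlib 3.10.9 under Python 3.11.15. The p-values rest on 3 livers per group.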

Additional observations from a re-analysis of the deposited data

How the results depend on the processing

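Over the alternatives, 151 values of the 9 genes were computed, all of the same sign for each gene, and 149 kept their side of an adjusted p of 0.05 from limma. The exceptions were *Mtr* with each library scaled to hepatocyte markers (0.59) and *Pemt* under median-ratio scaling (-0.43), so that 1 of the 9 genes passed in each of these settings. Of the 11565 tested genes 2069 passed in the first setting and 522 in the second. The number was 0 in every fit with 1 library left out. The cause was not tested. *Mtr* and *Mtrr* were not tested at a filter of 5 CPM, where their means fell below it. The number of genes called, 473 of 11565, was 768 with array weights, 2069 with hepatocyte-marker scaling and 157 to 536 with 1 library left out. It was 268 of 7502 tested genes with the filter at 5 CPM and 255 of 21297 with no filter. Of the genes in the 8 lists, 3 were called, 6 with array weights or median-ratio scaling, 10 with hepatocyte-marker scaling, and 1 to 4 with 1 library left out. The stellate cell markers called, 6, were 2 with the replicate block and 10 with hepatocyte-marker scaling. The Kupffer cell and macrophage markers called, 2, were 6 with the block or array weights and 0 with median-ratio scaling, quantile normalization, no filter or no trend. For the other genes named, 12 values over the alternatives gained a call and 8 lost one. Calls were gained by *Etnk1* in 3 settings, by *Tst* in 2, and by *Abcd4*, *Amt*, *Coq5*, *Ethe1*, *Gamt*, *Pipox* and *Srm* in 1 each. Those lost were of *Nnmt* in 6 settings and *Etnk2* in 2. Among the other genes named, *Chdh* turned to 0.0044 and *Lmbrd1* to 0.0084 with hepatocyte-marker scaling. *Dmgdh* turned to 0.1309 there, 0.0248 with array weights, 0.0160 with protein-coding sum scaling and 0.0903 with quantile normalization, and ranged from -0.1957 to 0.0505 with 1 library left out, as *Mat2b* did from -0.0686 to 0.2407.

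The sources used here state no pairing of livers by replicate number. Deviations of same-numbered livers from their group means correlated at -0.02, 0.05 and -0.005 across genes, and those of other-numbered livers at -0.04 to 0.05. Whether same-numbered livers were handled together was not tested. With the number as a replicate block 430 genes were called, 0 of the 9, and 4 in the lists. Depth limits *Mtrr* most, at an estimated 88 to 147 reads a library.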

Other observations

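Annotated transcripts overlap 4 of the 9 genes, and the sources used here do not state that reads were counted by strand. *Gm15622*, antisense to *Bhmt*, had 14.0 to 24.7 CPM in MMAB ASO livers and 12.8 to 40.2 CPM in CON ASO livers. *Gm43314*, within *Cth* on the same strand, had 7.71 to 30.3 CPM in MMAB ASO livers and 9.23 to 29.2 CPM in CON ASO livers, with log2 fold change 0.18. *Gm45609*, antisense to *Ahcy*, had 0.438 to 0.655 CPM in MMAB ASO livers and 0.328 to 0.413 CPM in CON ASO livers. *Gm26904*, a long noncoding gene that spans *Gnmt* on the other strand, had 0.112 to 0.176 CPM in MMAB ASO livers and 0.0553 to 0.0934 CPM in CON ASO livers. In both of these low transcripts every MMAB ASO liver lay above every CON ASO liver, and neither reached the mean of 1 CPM needed for the test. Of all tested genes 13.8% lay above in this way. A single read was worth 0.018 to 0.022 CPM, so *Gm26904* rests on few reads. These genes were chosen for their position.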
